A study of Mus musculus with 9 samples.

Results

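Accessible chromatin was described at 10 genes of the Hippo pathway and its transcriptional output in B16 mouse melanoma. The genes were Ccn1, Ccn2, Ankrd1, Amotl2, Yap1, Wwtr1, Tead1, Lats2, Limd1 and Fat1. They were selected on earlier results of these data, in which some of them held a region present in every library of a group and in no library of another. Every peak of the 9 deposited peak lists that touched a gene body or lay within 20 kb of it was kept (GRCm38, RefSeq gene models). Peaks of different libraries that shared at least 1 base were merged into a region. This gave 44 regions at 9 of the 10 genes, of 32649 regions in the whole series. Ankrd1 had none.

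ATAC-seq cuts open chromatin with a loaded transposase, and a peak is a stretch where cuts pile up above the local background. Each of 3 groups had 3 libraries. B16_untreated libraries came from B16 melanoma cells with no treatment. B16_IFNg libraries came from B16 cells kept in interferon gamma before they were injected into mice, for 2 weeks in replicates 1 and 2 and for 3 weeks in replicate 3. Res499 libraries came from a resistant line labelled 499, with no treatment, and the labels do not say what it resists or how it was made. In all 3 groups the cells were injected into mice, and the tumours were taken on day 15 and sorted. The markers used for the sort, the age and strain of the mice, and whether replicates came from separate animals are not given in the sources used here.

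The Hippo pathway is a kinase cascade that limits tissue growth. Its core kinases phosphorylate the coactivators YAP (Yap1) and TAZ (Wwtr1), which are then held in the cytoplasm or degraded. When the cascade is off, YAP and TAZ enter the nucleus and bind TEAD factors on DNA, and genes such as Ccn1, Ccn2, Ankrd1 and Amotl2 are transcribed. In melanoma cells, YAP and TAZ activity has been linked to invasive behaviour.

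TEAD factors bind the hexamer GGAATG, also written CATTCC on the other strand. The promoter windows of 6 genes are shown because they hold this hexamer in a stretch that the peaks below cover or leave uncovered. Each runs from 250 bases before the annotated start to 50 after it, 5′ to 3′ in the direction of the gene (RefSeq, GRCm38.p6). Capitals mark the hexamer. The windows are chr3:145649936-145650235 (minus strand) for Ccn1, chr19:36119795-36120094 (minus) for Ankrd1, chr9:102717554-102717853 (plus) for Amotl2, chr9:8004547-8004846 (minus) for Yap1, chr3:57575827-57576126 (minus) for Wwtr1 and chr14:57746074-57746373 (minus) for Lats2.
Ccn1: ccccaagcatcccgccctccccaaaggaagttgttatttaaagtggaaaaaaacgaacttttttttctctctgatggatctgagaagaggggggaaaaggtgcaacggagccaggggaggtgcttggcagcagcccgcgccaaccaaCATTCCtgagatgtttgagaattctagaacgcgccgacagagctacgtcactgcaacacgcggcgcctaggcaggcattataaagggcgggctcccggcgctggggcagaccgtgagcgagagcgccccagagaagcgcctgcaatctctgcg
Ankrd1: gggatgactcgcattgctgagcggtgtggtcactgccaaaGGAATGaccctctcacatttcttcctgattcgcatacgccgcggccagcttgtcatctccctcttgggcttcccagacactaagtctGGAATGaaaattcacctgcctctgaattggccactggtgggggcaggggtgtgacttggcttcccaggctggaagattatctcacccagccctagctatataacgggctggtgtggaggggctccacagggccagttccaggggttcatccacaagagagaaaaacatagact
Amotl2: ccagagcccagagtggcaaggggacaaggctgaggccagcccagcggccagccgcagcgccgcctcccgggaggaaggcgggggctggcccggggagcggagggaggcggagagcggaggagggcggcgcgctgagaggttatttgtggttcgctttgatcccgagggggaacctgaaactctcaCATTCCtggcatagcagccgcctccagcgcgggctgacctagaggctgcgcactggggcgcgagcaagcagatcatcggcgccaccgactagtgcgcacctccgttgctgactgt
Yap1: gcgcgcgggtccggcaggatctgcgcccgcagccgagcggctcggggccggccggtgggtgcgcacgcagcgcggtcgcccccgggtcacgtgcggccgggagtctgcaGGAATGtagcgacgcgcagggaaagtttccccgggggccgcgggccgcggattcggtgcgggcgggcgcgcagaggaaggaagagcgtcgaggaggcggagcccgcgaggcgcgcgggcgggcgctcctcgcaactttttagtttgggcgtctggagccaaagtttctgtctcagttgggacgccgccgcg
Wwtr1: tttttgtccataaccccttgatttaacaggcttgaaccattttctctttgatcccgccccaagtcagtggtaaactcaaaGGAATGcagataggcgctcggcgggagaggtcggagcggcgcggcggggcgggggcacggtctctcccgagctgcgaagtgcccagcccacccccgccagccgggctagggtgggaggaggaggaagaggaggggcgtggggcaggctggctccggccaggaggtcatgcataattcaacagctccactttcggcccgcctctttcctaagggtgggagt
Lats2: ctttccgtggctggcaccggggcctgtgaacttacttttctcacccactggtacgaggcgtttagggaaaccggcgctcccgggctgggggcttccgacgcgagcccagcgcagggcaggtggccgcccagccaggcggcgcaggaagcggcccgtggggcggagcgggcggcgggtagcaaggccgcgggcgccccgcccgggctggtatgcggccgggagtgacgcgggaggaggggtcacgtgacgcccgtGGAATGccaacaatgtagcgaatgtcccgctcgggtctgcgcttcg

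The sequence table matched 7 of the 10 genes, with 9 windows; Ccn2, Tead1 and Limd1 were not matched. All 7 matched genes held the hexamer in at least 1 window, against 16.6% of 27025 genes in the table. These genes are from a pathway that acts through TEAD factors, and Ccn1, Ankrd1 and Amotl2 are named above as targets. The contrast is therefore a description and was not tested. Among windows, 14.7% of 32851 held it, and the share was 10.6% of the 6547 windows inside a region called in all 9 libraries. Among further pathway genes, 8 of 19 matched kinases, adaptors and upstream regulators held it (42.1%), and 3 of 11 matched genes of a YAP and TAZ target signature (27.3%). The AP-1 site TGANTCA, the interferon gamma activated site TTCNNNGAA and the serum response factor CArG box, searched on both strands, had no match in the 9 windows. They occurred in 7.8%, 8.3% and 1.6% of 32544 different windows. A match is a string of letters and does not show that a factor bound there.

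At Yap1 the hexamer began at position -141, counting the annotated start as 0, and a peak lay over it in all 9 libraries. Amotl2 carried it at -65 on the reverse strand, under a peak in 8 libraries. In Lats2 the hexamer began at position 4, under a peak in 7 libraries. Wwtr1 had it at -170 in the window shown, under a peak in 5 libraries, and Ccn1 at -103 on the reverse strand, under a peak in 4. Ankrd1 carried it at -210 and -123, and no library had a peak over either position. The Fat1 window in the table, chr8:44949958-44950257, belongs to an inner start of the gene, held the hexamer at -102 from that start and had no peak over it.

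**Figure D1:**
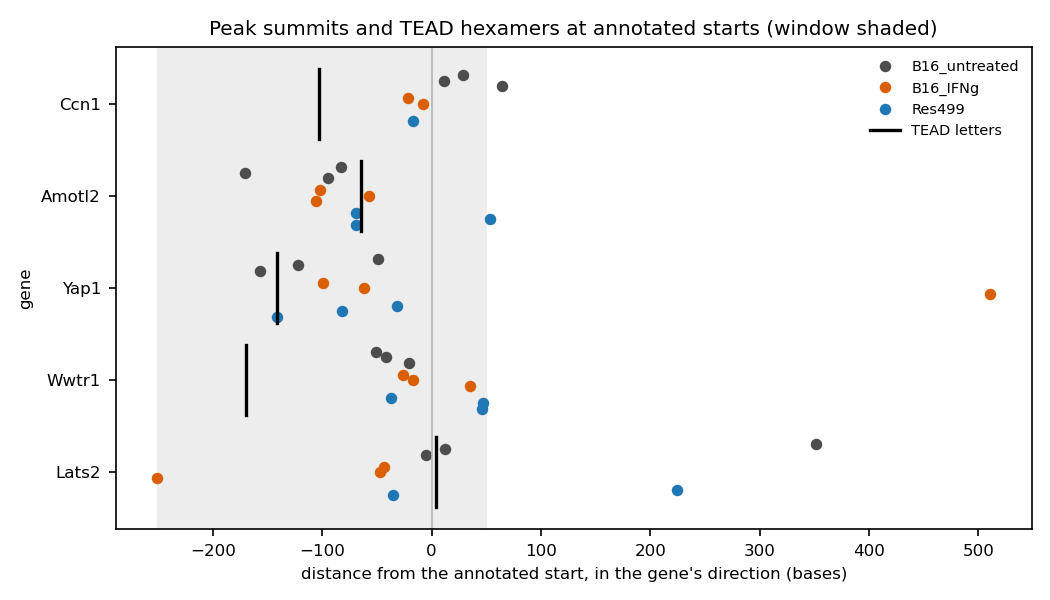
Position of the summit of each library's peak over the promoter window (points, coloured by group) and of the TEAD hexamer (black bars). Positions are relative to the annotated start, in bases in the direction of the gene. The shaded span is the promoter window. Ccn1 summits lay at -22 to 64 bases and Wwtr1 summits at -51 to 47, while the farthest summits of Yap1 and Lats2 lay 511 and 352 bases into the gene.

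Summits were read from the peak of each library that overlapped the promoter window, which partly fixes their closeness to the annotated start. Their median position was 1.5 bases past the start at Ccn1 over 6 libraries, -21 at Wwtr1, -82 at Yap1 and -83 at Amotl2 over 9 libraries each, and -20 at Lats2 over 8. Yap1 ran from -157 to 511 and Lats2 from -251 to 352, so that a summit did not mark the same base in every library. For Yap1 in B16_IFNg replicate 1, the peak over the window ranked 8091. The most significant peak of the region, ranked 4512, lay outside the window.

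The lists differed in length. They held 15045, 25374 and 20139 peaks in B16_untreated, 16240, 13175 and 11183 in B16_IFNg, then 15396, 9221 and 11768 in Res499; here and below, values are in the order of replicates 1 to 3. The files hold peaks only, so total read numbers are unknown. Groups were therefore compared on lists of equal length, the 9214 most significant peaks of each library by the authors' -log10 p on the chromosomes used. This number is the length of the shortest list, that of Res499 replicate 2. Every peak of that library is therefore in its equal-length list, however weak. The shortest peak was at least 150 bp in 4 libraries (replicates 1 and 3 of B16_untreated and replicate 3 of both other groups) and shorter in the other 5, so that each group held both kinds of list. Of the melanocyte genes, Mitf, Pmel and Dct had a peak no more than 1 kb from a gene end in all 9 full lists, and in the equal-length lists Mitf and Pmel kept it in 9 and Dct in 2 of each group. In B16_untreated, B16_IFNg and Res499, Tyr had a peak in 3, 3 and 1 full lists and in 1, 1 and 1 equal-length lists, and Tyrp1 in 3, 2 and 1 full and 3, 2 and 0 equal-length lists. Sox10 had a peak in 1 full list of B16_untreated and Mlana in 1 of Res499. None of 7 leukocyte and 5 endothelial genes had a peak in any full list. Of 6 fibroblast genes, Col1a1 had a peak in 3, 3 and 1 full and 0, 2 and 1 equal-length lists, and Pdgfrb in 1, 0 and 0 full lists. The part of cell makeup in the results was not tested.

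In the full lists the genes showed 22, 34 and 25 regions in B16_untreated, 23, 17 and 19 in B16_IFNg, then 19, 14 and 16 in Res499. These counts averaged 27.0 ± 6.24, 19.67 ± 3.06 and 16.33 ± 2.52 (SD, n = 3 each). The longest list showed the most regions and the shortest the fewest, but the libraries in between were not strictly in the order of their list lengths. In the equal-length lists they were 11, 14 and 13, then 11, 12 and 15, then 11, 14 and 10, or 12.67 ± 1.53, 12.67 ± 2.08 and 11.67 ± 2.08 (SD, n = 3 each). The 3 ranges overlapped. Of the 44 regions, 8 had a peak in all 9 libraries (18.2%, against 18.9% of all regions) and 16 in a single library (36.4%, against 36.8%). Of those 16, B16_untreated libraries held 10, B16_IFNg 3 and Res499 3. The same split over all regions was not counted, and the full lists differ in length, so nothing is read from it.

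**Figure D2:**
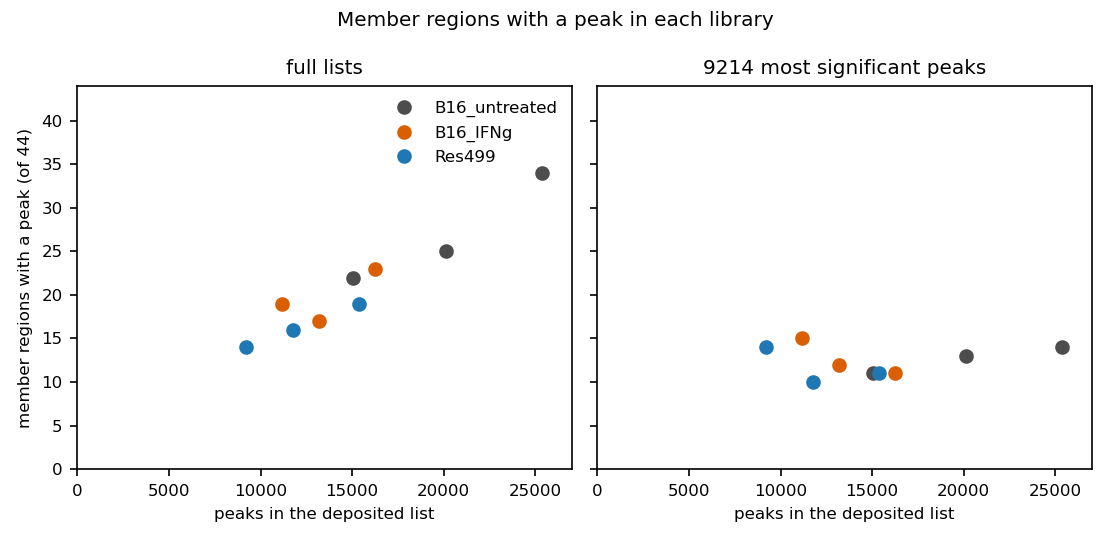
Number of the 44 regions with a peak in each library (vertical axis) against the number of peaks in its deposited list (horizontal axis), for the full lists and for the 9214 most significant peaks; each point is a library, coloured by group. In the full lists the number lies between 14 for the shortest list and 34 for the longest, and in the equal-length lists it lies between 10 and 15 in every library.

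**Figure D3:**
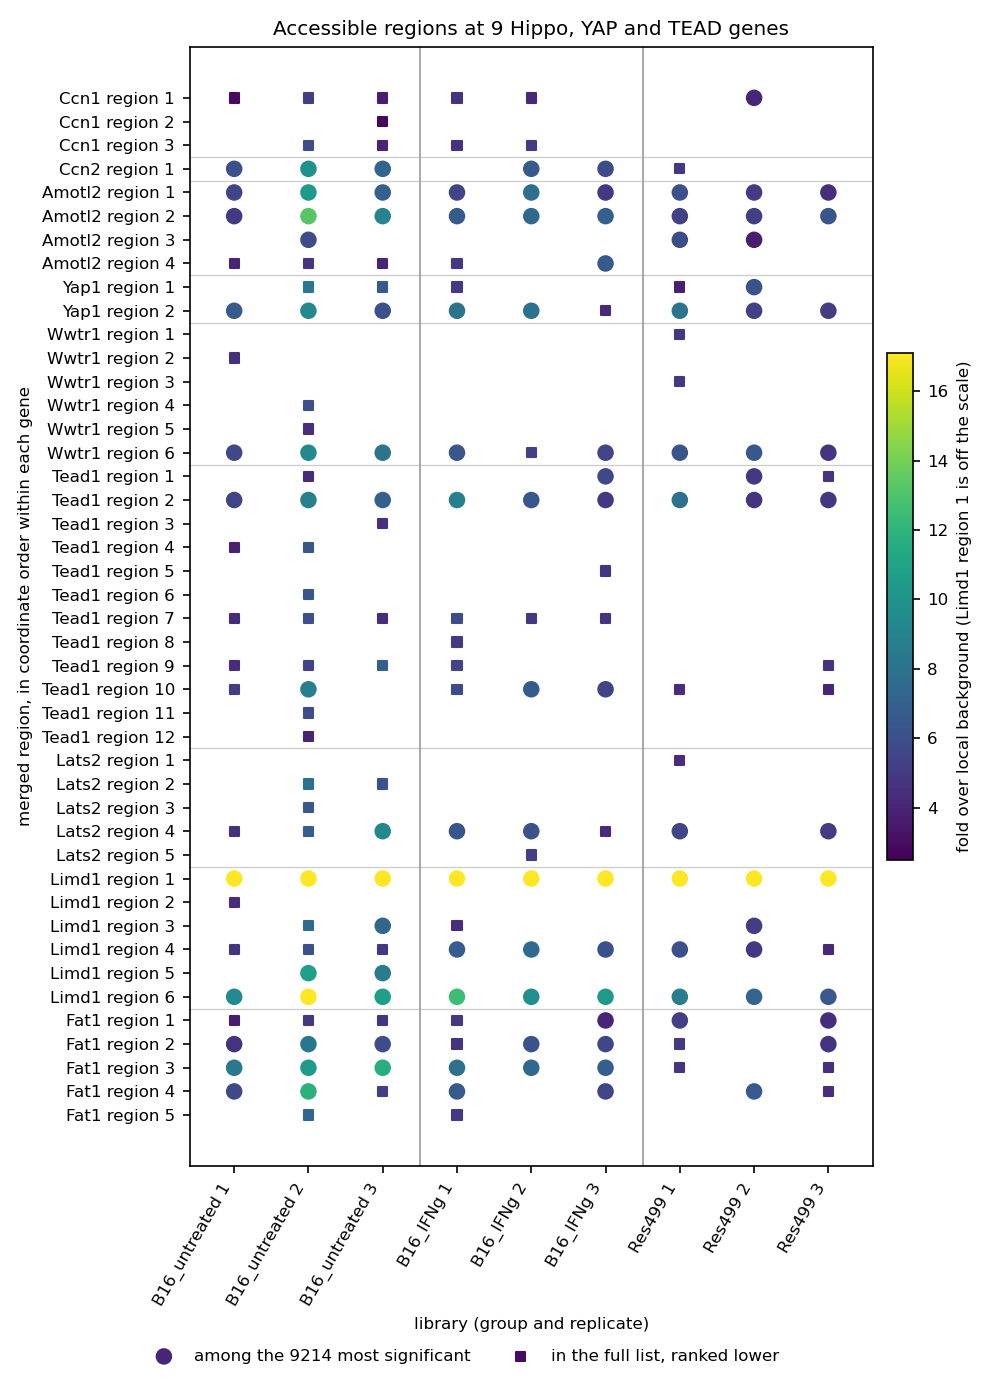
All 44 regions (rows) in the 9 libraries (columns); a circle is a peak among the 9214 most significant of its library, a small square a peak ranked lower, a blank no peak, and colour gives the authors' fold over local background. The 8 rows filled in all columns are 2 at Amotl2, 1 each at Yap1, Wwtr1 and Tead1, and 3 at Limd1.

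Differences between groups were counted beside the same over all regions. A region was counted as gained when each library of the group named first and no library of the other had it in the equal-length lists, and as lost in the opposite case. The regions tested had a peak in at least 3 of the 6 libraries. In B16_IFNg against B16_untreated, 1 of 14 tested regions was gained, the Limd1 start, and 0 were lost; over all 9495 tested regions, 0.59% were gained and 0.906% lost. In Res499 against B16_untreated, 0 of 13 were gained and 2 lost, at Ccn2 and inside Fat1, beside 0.919% gained and 1.52% lost of 9360. In Res499 against B16_IFNg, 0 of 13 were gained and 1 lost, inside Fat1, beside 0.627% gained and 0.875% lost of 9254. Nothing can be read from these member counts, because the genes were selected on them. Each pair of these comparisons shares a group of libraries. With 3 libraries against 3, an exact two-sided permutation test of a single region cannot go below p = 0.1.

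The peaks nearest the rank limit of 9214 belonged to other regions than these. Just inside it were peaks of Tead1 at 9117, Fat1 at 9072 and Amotl2 at 9049, and just outside it peaks of Wwtr1 at 9297 and Tead1 at 9350 and 9352. The inner Fat1 peak of Res499 replicate 3, at 9401, lay close behind. For the distance limit of 20 kb, the farthest regions kept lay 17134 bp from Yap1, 16512 bp from Fat1 and 16487 bp from Limd1, and the nearest left out lay 22735 bp from Tead1 and 23464 and 23957 bp from Ccn2.

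Among the target genes, Ccn1, a secreted matricellular protein, had a weak peak at its start. The region (chr3:145649528-145650206) covers the start of Ccn1 and overlaps the predicted gene Gm17501. Its fold over background was 2.93, 5.11 and 3.64 in B16_untreated, 4.6 and 4.1 in B16_IFNg replicates 1 and 2, and 4.05 in Res499 replicate 2, with no peak in the other 3 libraries. The peaks ranked 12327, 14431 and 14701 of their lists in B16_untreated, 10161 and 11626 in B16_IFNg, and 8051 in Res499 replicate 2. Only the last of these was in the equal-length lists, and it comes from the library whose whole list was used. The presence of this region in full lists therefore cannot be set against its absence in shorter ones. The values fit a fold of the summit pileup (the number of sequenced pieces stacked there) plus 1, over the local background plus 1. Whether a piece was a whole fragment is not given, and pieces are called fragments below. The pileup was 35, 20 and 28 in B16_untreated over a local background of 11.27, 3.11 and 6.97, and 14 over 2.7 in Res499 replicate 2. A second region 3211 bp from the gene (chr3:145653196-145653768) had folds of 5.81 and 3.96 in B16_untreated replicates 2 and 3 and of 4.59 and 4.99 in B16_IFNg replicates 1 and 2. No peak lay there in B16_untreated replicate 1, B16_IFNg replicate 3 or any Res499 library, and none of the 4 peaks was in the equal-length lists. The remaining region, 1740 bp from the gene, was in B16_untreated replicate 3 only, with a fold of 2.79.

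Ccn2, also called connective tissue growth factor, had a single region, at its start (chr10:24595313-24596102, overlapping Gm15270). The fold was 6.14, 9.92 and 7.23 in B16_untreated, 6.63 and 5.91 in B16_IFNg replicates 2 and 3, and 4.86 in Res499 replicate 1. B16_IFNg replicate 1 and Res499 replicates 2 and 3 had no peak. The ranks were 5457, 7115 and 7130 in B16_untreated, 6318 and 6332 in B16_IFNg and 11996 in Res499. In the equal-length lists the region was thus in 3, 2 and 0 libraries of B16_untreated, B16_IFNg and Res499. The summit held 31, 22 and 28 fragments in B16_untreated, 12 and 15 in the 2 B16_IFNg libraries and 10 in Res499 replicate 1. The gene was selected on this contrast of Res499 with B16_untreated, so the pattern is a description and carries no test. In such bulk libraries, fewer cells with an open site and a less open site in each cell cannot be told apart.

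Ankrd1, a nuclear ankyrin repeat protein and a common reporter of YAP activity, had no peak in its body or within 20 kb in any library. The nearest peak lay 27871 to 28183 bp from the gene, at an end of Rpp30, and was found in all 9 libraries.

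Amotl2, an angiomotin-like scaffold that binds YAP and is itself a target, was the only one of Ccn1, Ccn2, Ankrd1 and Amotl2 with regions in every library. A region at its start (chr9:102717306-102718523) and another inside the gene (chr9:102723832-102724583, 6741 bp from the nearer end) were in the equal-length lists of all 9 libraries. At the start the fold was 5.51, 10.36 and 6.92 in B16_untreated, 5.46, 7.75 and 4.85 in B16_IFNg, then 6.05, 5.02 and 4.45 in Res499. Inside the gene it was 4.93, 13.26 and 9.09, then 6.6, 7.39 and 6.86, then 5.29, 5.18 and 6.28. The summits of the inner region fell within 164 bp of each other. Another inner region (chr9:102726220-102726553) was in the equal-length lists of B16_untreated replicate 2 and Res499 replicates 1 and 2, with folds of 5.85, 5.91 and 3.71. Its ranks in these lists were 8161, 4235 and 9049. The last (chr9:102731055-102731645) had a peak in all 3 B16_untreated libraries, B16_IFNg replicates 1 and 3 and no Res499 library, but only that of B16_IFNg replicate 3 was in an equal-length list, with a fold of 6.55.

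To compare libraries on the same set, the 6166 regions with a peak in all 9 libraries were ranked within each library by -log10 p, and the ranks were turned into normal scores and compared with limma. Of the 44 regions, 8 entered, and the others could not, since a library lacked them. No region of the 6166 passed the threshold of 0.05 in any of the 3 comparisons (0% called). The inner Amotl2 region ranked 3378, 453 and 401 of 6166 in B16_untreated, 4159, 2615 and 1108 in B16_IFNg, then 4899, 4117 and 562 in Res499. The ranges of the 3 groups overlapped. Its score differed by -0.73 ± 0.58 (SE) between B16_IFNg and B16_untreated (limma, adjusted p = 0.997) and by -0.92 ± 0.58 between Res499 and B16_untreated (adjusted p = 0.813). At the Amotl2 start the ranks were 3530, 2974 and 3734, then 5646, 2377 and 4970, then 4225, 5207 and 4734. Each Res499 library was ranked lower than each B16_untreated library there, but the difference of -0.61 ± 0.46 did not pass the threshold (limma, adjusted p = 0.862).

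Yap1, the coactivator itself, had an accessible start (chr9:8003552-8005037). The fold was 6.65, 9.37 and 6.09 in B16_untreated, 8.14, 7.99 and 4.21 in B16_IFNg, then 8.15, 5.3 and 5.08 in Res499, and the region was in every equal-length list except that of B16_IFNg replicate 3. In the common set it ranked 3128, 4884 and 5626, then 3819, 2573 and 6049, then 2548, 4645 and 4484. Its score differed by 0.01 ± 0.55 in B16_IFNg and by 0.37 ± 0.55 in Res499 from B16_untreated (limma, adjusted p = 0.999 and 0.94). A second region lay 17134 bp from the gene (chr9:7914542-7914865), with folds of 8.29 and 6.58 in B16_untreated replicates 2 and 3, 4.96 in B16_IFNg replicate 1, and 3.84 and 6.24 in Res499 replicates 1 and 2. Only the peak of Res499 replicate 2 was in an equal-length list.

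Wwtr1, which encodes TAZ, had its main region at the start (chr3:57575313-57576725), with folds of 5.67, 9.35 and 8.03 in B16_untreated, 6.45, 5.29 and 5.42 in B16_IFNg, then 6.36, 6.46 and 4.76 in Res499. The common-set ranks were 4627, 4684 and 4020, then 5478, 5751 and 4782, then 4688, 2634 and 4681. All 3 B16_IFNg libraries ranked it lower than the 6 others. The score was -0.57 ± 0.43 in B16_IFNg relative to B16_untreated and 0.75 ± 0.43 in Res499 relative to B16_IFNg, and neither passed the threshold (limma, adjusted p = 0.997 and 0.822). The other 5 regions near Wwtr1 were each in a single library, 3 in B16_untreated and 2 in Res499, none in an equal-length list, with folds from 4.5 to 5.95. The Wwtr1 region farthest from the gene lay 525 bp from an end of Tm4sf4.

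Tead1, the DNA-binding partner, is the longest of these genes and had the most regions, 11 in its body and 1 outside. Its start (chr7:112678326-112680109) had a peak in all 9 equal-length lists, with folds of 5.49, 8.81 and 6.86, then 8.8, 6.47 and 4.82, then 8.0, 4.67 and 4.86. The common-set ranks were 4440, 5246 and 4834 in B16_untreated, 2470, 4511 and 5413 in B16_IFNg, then 1909, 5821 and 5046 in Res499. The scores differed by 0.29 ± 0.52 and 0.14 ± 0.52 from B16_untreated (limma, adjusted p = 0.997 and 0.981). In both other groups replicate 1 stood above the rest.

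No inner Tead1 region had a peak in all 9 libraries. A region 40756 bp from the nearer end (chr7:112720112-112720831) had a peak in all 6 B16 libraries and in no Res499 library, with folds of 4.24, 6.07 and 4.41 in B16_untreated and 5.87, 4.82 and 4.7 in B16_IFNg. None of the 6 peaks was in an equal-length list, as their ranks ran from 9456 to 17659. Another inner region (chr7:112823713-112824010) had a peak in 7 libraries, with folds of 5.09 and 8.66 in B16_untreated replicates 1 and 2, 5.77, 6.69 and 5.43 in B16_IFNg, then 4.35 and 4.07 in Res499 replicates 1 and 3. In B16_IFNg replicates 2 and 3 its fold was above that of the Tead1 start. In the equal-length lists it was in 1 B16_untreated, 2 B16_IFNg and 0 Res499 libraries. A further one (chr7:112807061-112807927) was in 3, 1 and 1 libraries of B16_untreated, B16_IFNg and Res499, ranked too low for any equal-length list. The region upstream of the gene, 15696 bp away, was in 1, 1 and 2 libraries, and the remaining 7 inner regions were in 1 or 2 libraries each.

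Upstream in the pathway, Lats2 encodes a kinase that phosphorylates YAP and TAZ and is also a target of theirs. Its start (chr14:57745510-57746564, overlapping Gm52140) had folds of 4.52, 6.72 and 9.3 in B16_untreated, 6.38, 6.2 and 4.21 in B16_IFNg, then 5.53 and 5.04 in Res499 replicates 1 and 3. Res499 replicate 2 had no peak. The summit pileup ranged from 10 to 34 fragments, the highest in B16_untreated replicate 3, and the region was in 1, 2 and 2 equal-length lists of the 3 groups. An inner region (chr14:57701993-57702287) was in B16_untreated replicates 2 and 3 only, with folds of 7.82 and 6.19 and ranks of 11875 and 12994. The other 3 Lats2 regions were in a single library each.

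Limd1 encodes a LIM domain protein of the Ajuba family that inhibits LATS kinases. The region at its start (chr9:123478087-123479098) had a peak in all 9 libraries, with folds of 4.77, 6.11 and 4.84 in B16_untreated, 6.75, 7.54 and 6.13 in B16_IFNg, then 6.14, 4.88 and 4.11 in Res499. Its ranks were 9674, 13107 and 12099 in B16_untreated, 6172, 4111 and 4140 in B16_IFNg, then 6370, 6658 and 9963 in Res499. In the equal-length lists it was therefore in 0, 3 and 2 libraries. In the common set of 6166 regions every library ranks the same regions, although a region enters only if every full list holds it. There the Limd1 start ranked 5809, 6074 and 6032 in B16_untreated, 4734, 3505 and 3576 in B16_IFNg, then 4866, 5314 and 6013 in Res499. The B16_IFNg libraries lay above the 6 others. The mean scores were -1.92 ± 0.31 in B16_untreated and -0.37 ± 0.31 in B16_IFNg (SD, n = 3 each). The summit pileups of both groups overlapped, at 19, 15 and 21 fragments in B16_IFNg and 24, 18 and 25 in B16_untreated. The gene was selected on this contrast of B16_IFNg with B16_untreated, and on the low rank in B16_untreated. The region entered the limma comparison of ranks with the rest of the common set and did not pass the threshold. Because of that selection, its result there is no test of a difference of this region. The mean score in Res499 was -1.29 ± 0.6 (SD, n = 3).

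A region inside Limd1 (chr9:123492145-123492714) was in B16_untreated replicates 2 and 3, with folds of 10.75 and 8.59 and ranks of 5776 and 6758, and had no peak in the other 7 libraries. The summits of both peaks lay within 15 bp of each other. A region 4754 bp from the gene had folds of 7.51 and 7.28 in B16_untreated replicates 2 and 3, 4.43 in B16_IFNg replicate 1 and 5.09 in Res499 replicate 2.

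The flanks of Limd1 held regions that belong to its neighbours. At an end of Sacm1l, overlapping the transfer RNA gene n-TRacg2 (chr9:123529049-123530239, 7497 bp from Limd1), the fold was 9.43, 17.09 and 10.67 in B16_untreated, 12.49, 9.75 and 10.35 in B16_IFNg, then 8.64, 7.16 and 6.51 in Res499. Its common-set ranks were 98, 198 and 452, then 138, 732 and 93, then 1241, 1528 and 541. The score in Res499 differed by -0.86 ± 0.44 from B16_untreated and by -0.83 ± 0.44 from B16_IFNg, and neither difference passed the threshold (limma, adjusted p = 0.737 and 0.795). Inside Lars2, 501 bp from its end and 16487 bp from Limd1, a peak of 361 bp (chr9:123461814-123462174) stood apart from all other regions at these genes. It ranked 5, 5 and 5 in B16_untreated, 8, 11 and 5 in B16_IFNg, then 8, 9 and 5 in Res499, with folds from 33.82 to 54.52, and its summits fell within 15 bp in all 9 libraries. This peak is 1 of the 8 regions shared by all libraries; no list of artefact-prone regions was used, and whether it is an artefact was not tested.

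Fat1, a giant cadherin upstream of the pathway, had 4 regions in its body. The region described in the earlier results lay 46906 bp from the nearer end (chr8:44980006-44980741). Its fold was 8.31, 10.44 and 11.64 in B16_untreated, 7.88, 7.45 and 6.8 in B16_IFNg, then 4.77 and 4.5 in Res499 replicates 1 and 3, with no peak in Res499 replicate 2. The ranks were 2762, 6256 and 2600, then 5360, 5039 and 3870, then 12198 and 9401. The region was thus in all 6 B16 equal-length lists and in no Res499 list, and the 2 Res499 peaks were in the full lists. The summit pileup was 33, 24 and 35 fragments in B16_untreated, 17, 12 and 19 in B16_IFNg, then 10 and 15 in the 2 Res499 libraries. Fat1 was selected on the contrast of Res499 with B16_IFNg, so these values are a description.

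No other Fat1 region was in every B16 equal-length list and in no Res499 list. Some were in fewer equal-length lists of Res499 than of either B16 group, and the first below was in more. At 1798 bp from the start of the gene body, chr8:44934898-44936179 was in 0, 1 and 2 equal-length lists of B16_untreated, B16_IFNg and Res499, and at 4180 bp from it, chr8:44937280-44938661 was in 3, 2 and 1. The folds of the former were 3.6, 4.89 and 4.76 in B16_untreated, 4.78 and 4.02 in B16_IFNg replicates 1 and 3, and 5.14 and 4.27 in Res499 replicates 1 and 3. Those of the latter were 4.66, 8.25 and 5.86, then 4.71, 6.23 and 5.57, then 4.97 and 4.63 in Res499 replicates 1 and 3. A region at chr8:44998565-44999190 was in 2, 2 and 1 equal-length lists, with folds of 5.67, 11.8 and 5.23 in B16_untreated, 6.6 and 5.47 in B16_IFNg replicates 1 and 3, and 6.49 and 4.4 in Res499 replicates 2 and 3. The last region was 68 bp from an end of Mtnr1a and was in B16_untreated replicate 2 and B16_IFNg replicate 1 only.

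**Figure D4:**
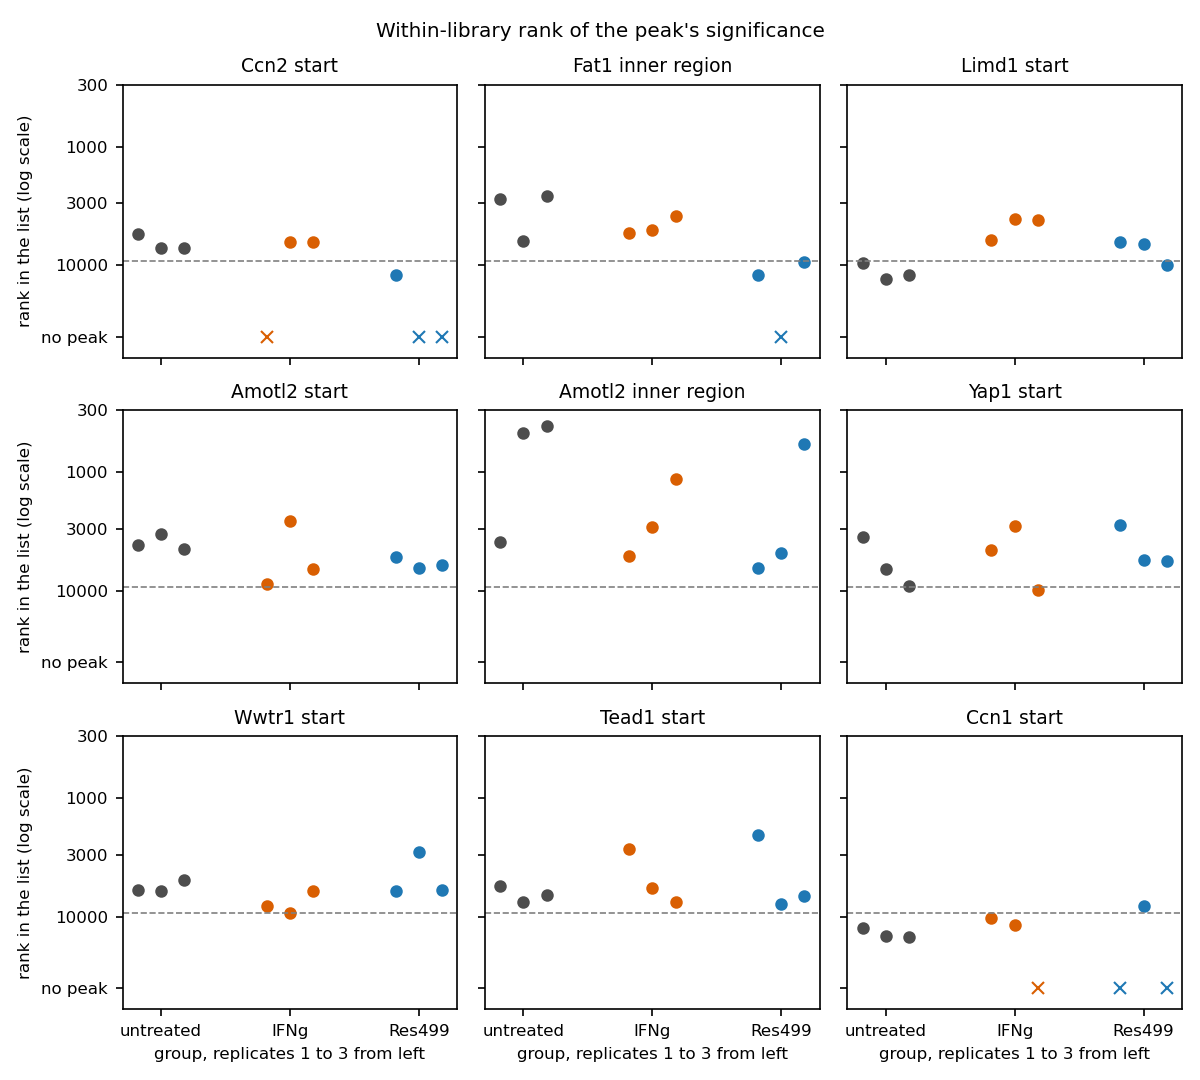
Rank of the peak by -log10 p in the full list of each library (vertical axis, log scale, most significant at the top; crosses are libraries with no peak) for 9 regions, by group; the dashed line is rank 9214. At Ccn2 and the inner Fat1 region the 3 B16_untreated points lie above the line and the Res499 points below it, and at the Limd1 start the 3 B16_IFNg points lie above it and the B16_untreated points below.

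In the limma comparison of ranks, 0 of the 8 regions passed the threshold, as did 0 of all 6166. The number of all regions with an unadjusted p under 0.05 was 258 (4.18%) for B16_IFNg against B16_untreated, 435 (7.05%) for Res499 against B16_untreated and 375 (6.08%) for Res499 against B16_IFNg. Among the 8 regions it was 1, 0 and 0, the 1 being the Limd1 start in the contrast it was selected on. The median score difference of the 8 was -0.08, 0.01 and -0.13, beside 0, -0.01 and 0 over all regions. Within B16_untreated the order of the starts by median common-set rank was Amotl2 (3530), Wwtr1 (4627), Tead1 (4834), Yap1 (4884) and Limd1 (6032). Yap1, at 3128 to 5626, overlapped in range with Amotl2 (2974 to 3734), Wwtr1 and Tead1, and Wwtr1 overlapped with Tead1. The place of Limd1, at 5809 to 6074, follows from its selection.

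The rest of the pathway was described from lists of genes. Of 23 kinases, adaptors and upstream regulators, among them Stk3, Stk4, Sav1, Lats1, Nf2 and Tead2 to Tead4, 21 had a region and they had 56 in all. None of the 42, 39 and 40 tested in the 3 comparisons, in the order above, was gained or lost. Over all tested regions, 0.59% were gained and 0.906% lost in the first comparison, and 0.919% and 1.52% in the second. The third had 0.627% and 0.875%. At such low shares, 0 among these regions is no result about these genes. In the rank comparison 28 of these regions entered, 0 passed the threshold (limma, lowest adjusted p 0.643), and 1, 1 and 2 had an unadjusted p under 0.05. Of 17 genes of a YAP and TAZ target signature, 13 had a region and they had 32 in all. Of the 16, 17 and 13 tested, 1 was gained in B16_IFNg against B16_untreated, 1 was gained and 1 lost in Res499 against B16_untreated, and 0 were gained or lost in Res499 against B16_IFNg. Over all tested regions the shares were 0.59% gained in the first comparison, and 0.919% gained and 1.52% lost in the second. For the rank comparison 8 entered, 0 passed (lowest adjusted p 0.643), and 2, 2 and 0 had an unadjusted p under 0.05. Ptpn14 belongs to both lists.

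The gained region was the same in both comparisons with B16_untreated and lay at an end of Crim1, a membrane protein that binds bone morphogenetic proteins (chr17:78199789-78200995). Its fold was 4.38, 6.47 and 4.85 in B16_untreated, 7.68, 5.64 and 5.25 in B16_IFNg, then 6.04, 5.71 and 4.23 in Res499. The ranks were 10254, 10573 and 11662, then 3853, 7777 and 6031, then 6199, 4127 and 8354, and the peak was present in all 9 full lists. The folds of the 3 groups overlapped. The lost region lay deep inside Rbms3, an RNA-binding protein gene (chr9:117018204-117019346). The fold was 6.95, 14.87 and 9.91 in B16_untreated, 8.03 and 7.02 in B16_IFNg replicates 2 and 3, and 4.05 and 3.99 in Res499 replicates 1 and 3. Its summit pileup was 25, 42 and 41 fragments in B16_untreated, 13 and 18 in the B16_IFNg libraries with a peak, and 8 and 13 in the Res499 libraries with a peak.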

How the data were processed

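Each library is a peak list of 10 columns. Per the submitters' processing notes, the tools named are CASAVA, cutadapt 1.9, Bowtie2 2.2.4 and MACS2, with the builds GRCm38 and mm10; settings, duplicate handling and any shift of cut sites are not given in the sources used here. The deposited fold is a ratio, which the values fit as summit pileup plus 1 over local background plus 1, and the deposited p and q are on a -log10 scale. Both are the authors' values for their own peak and were used only to describe and rank peaks within a list. The deposited score was not used.

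Autosomal, X and Y peaks were merged where they shared at least 1 base, and the most significant peak of a library stands for a region. For summits at promoter windows, the peak over the window was used. Pileup and background were solved on that definition from fold and -log10 p (under 200) with a Poisson model; within a tolerance of 0.01 the pileup came out whole for 100.0% of peaks in each library. The rank comparison used limma 3.58.1 in R 4.3.3, with 3 group means over all 9 libraries and Benjamini-Hochberg adjustment over 6166 regions; the rest used Python 3.11.15, pandas 2.3.3, numpy 2.4.6 and scipy 1.17.1. The steps were run on simulated data with planted changes. For gained and lost regions these met the counting rule by design, so the run checks the code and not the rule. All 10 genes are named, and genes of the 2 further lists where a region was gained, lost or past the threshold. The genes and lists were chosen with earlier results of these data known. Because no source says that replicates are separate animals, the spread behind each p-value may be technical. Library pairs shared 1 to 8 identical peaks, so no list was a copy of another. This does not show that libraries are independent, and counting all 9 as separate samples is an assumption. No genome sequence and no list of artefact-prone regions was used. Alternatives were other list lengths, ranking, overlap, merging and distance, each library left out, and, for the rank comparison, the replicate block, the kind of list and regions in at least 7 libraries.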

Additional observations from a re-analysis of the deposited data

How the results depend on the processing

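The counts of gained and lost regions at the 10 genes are 1, 2 and 1 for B16_IFNg against B16_untreated, Res499 against B16_untreated and Res499 against B16_IFNg, and they depend on where a list ends. Merging peaks up to 250 bp apart, or a distance limit of 10 or 50 kb, left all 3 counts and their genes as they were. With all deposited peaks the first was 0, while the others kept their number at different regions (Amotl2 and Tead1, and Tead1, all lost). Over all regions, lost ones then rose from 86, 142 and 81 to 771, 1210 and 137. Gained ones fell from 56, 86 and 58 to 5, 8 and 33. With the 4607 most significant peaks the 3 counts at the 10 genes were 0, 1 and 0. The 1 was an Amotl2 region lost, so that Limd1, Ccn2 and Fat1 all dropped out. Over all regions, gained ones then numbered 43, 75 and 52 and lost ones 54, 62 and 52. Ranking by fold gave 1, 1 and 0 at the 10 genes, with Limd1 gained and Ccn2 lost but Fat1 in neither comparison. Over all regions, gained ones then numbered 103, 107 and 60 and lost ones 116, 163 and 89. Requiring a peak to cover 50% of a region gave 1, 3 and 0, the first being a lost region at Yap1 in place of the Limd1 gain and the second being Ccn2, Fat1 and Tead1; lost regions over all then numbered 408, 617 and 86, and gained ones 25, 21 and 41. Leaving out a library gave 1 to 2, 2 to 4 and 1 to 3 at the 10 genes. Over all regions, gained ones then numbered 110 to 191, 143 to 240 and 127 to 176. Lost ones numbered 154 to 281, 228 to 410 and 160 to 239. At the 10 genes, the first count was 2 without B16_untreated replicate 1, with the inner Limd1 region also lost. For Res499 against B16_untreated the count was 4 without Res499 replicate 3, with Ccn2 and 2 Fat1 regions lost and a Limd1 region gained. For Res499 against B16_IFNg it was 3 without B16_IFNg replicate 1, with Ccn2, Fat1 and Tead1 lost, and 2 without Res499 replicate 3. The rule for gained and lost is looser with a library left out, so a count can then stay or rise but not fall. Why these regions were the ones added was not tested. In the rank comparison the 10 genes had 0 regions past the threshold under every alternative run. Over all regions the number was also 0, with 1 exception. With regions in at least 7 libraries, 2 of all regions were higher in Res499 than in B16_untreated. The fit with a replicate block also gave 0, with lowest adjusted p of 0.996, 0.68 and 0.752. Same-numbered libraries of different groups had correlations of their deviations from the group means of -0.021 to 0.1. Differently numbered ones had -0.105 to 0.077. These values do not settle whether the numbers pair the libraries. Read depth is unknown, and a missing peak does not show closed chromatin.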
